A study of Homo sapiens with 10 samples.

Results

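KLK5, KLK6, KLK7, KLK8, KLK10 and KLK11 are kallikrein-related peptidase genes of a single cluster on chromosome 19. They were chosen by symbol, and all 6 were found among the 58222 genes of the expression table. OVCAR-3 cells, a long-established line from a human ovarian adenocarcinoma, were profiled by RNA sequencing in 10 libraries, 2 biological replicates in each of 5 groups. The Day1 group had spent 24 hours immobilized in a silica gel and the Day3 group 3 days. The Extracted group was taken out after 3 days, and its surviving cells recovered for 2 weeks. The Treated group had been given cisplatin, which damages DNA through platinum crosslinks, at 0.5 uM for 24 hours without any gel, and its survivors likewise recovered for 2 weeks. Control cells grew under standard culture conditions. All groups are a single cell line in culture medium with serum, and both recovered groups are populations of survivors, so selection of cells and change within cells cannot be told apart. Bulk RNA does not separate fewer cells that express a gene from less RNA per cell. Values are TPM, a transcript abundance corrected for length and given as a share of the library's total. They are given as mean ± SD with n = 2 per group. Overlap between the libraries of groups is a description, given without its share over all genes.

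Kallikreins are secreted serine proteases. They are made as inactive precursors and activated by removal of a short propeptide, in part by one another, and serpins, Kunitz-type and Kazal-type inhibitors restrain them outside the cell. In the skin they shed the outer layer by cutting the proteins that hold corneocytes together. Several members of the family are abundant in ovarian carcinoma and in ascites fluid, and KLK6, KLK10 and KLK11 have been studied as serum markers of that disease.

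The 6 genes lie on the minus strand within 84.7 kb of chromosome 19 in the GRCh38 build (GENCODE 29 annotation). In order of position, KLK5 occupies chr19:50943303-50953093, KLK6 chr19:50958631-50969673, KLK7 chr19:50976482-50984099, KLK8 chr19:50996007-51002711, KLK10 chr19:51012739-51020175 and KLK11 chr19:51022216-51028039. KLK5 was the most abundant member in 9 of the 10 libraries and KLK6 in Treated replicate 1. KLK11, a trypsin-like member first described in the hippocampus, was barely detected. Its TPM lay between 0.143 and 0.918 in the 10 libraries, so it did not reach the filter of 1 TPM in 2 libraries and was not tested. Its group means were 0.226 ± 0.117 TPM in Day1 cells, 0.760 ± 0.224 in Day3 cells, 0.473 ± 0.158 in Extracted, 0.355 ± 0.128 in Treated and 0.301 ± 0.140 in Control. The other 5 members passed that filter.

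**Figure D1:**
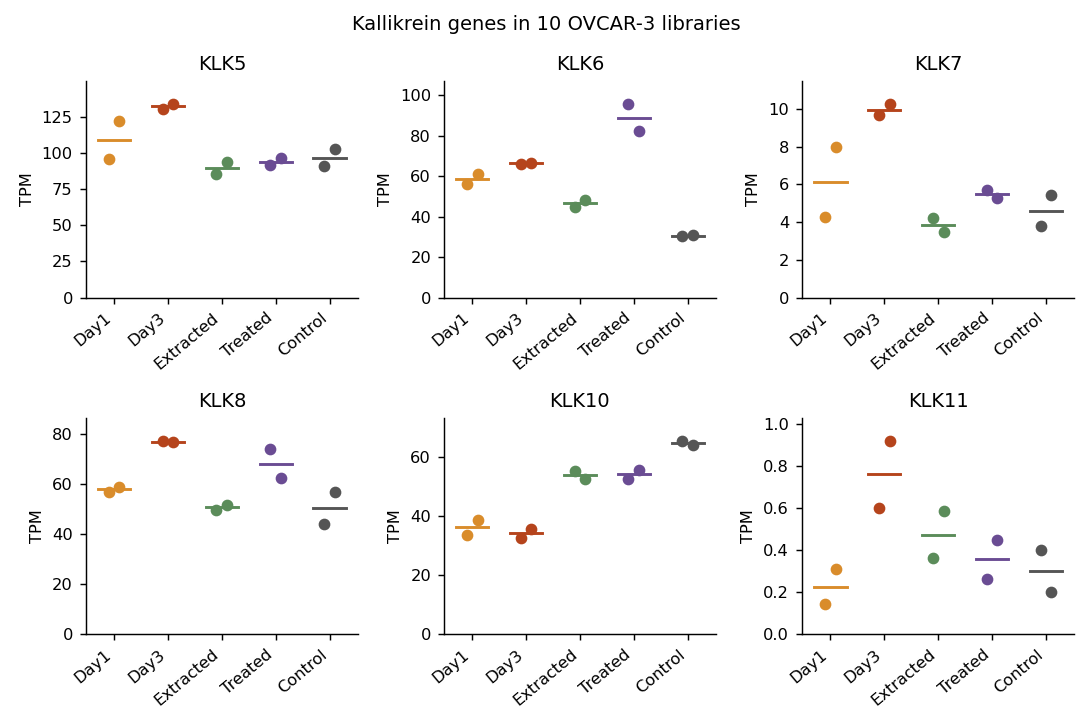
TPM of the 6 kallikrein genes in each of the 10 libraries. Each point is a library and each bar the mean of the 2 libraries of its group, on a linear axis that starts at 0. Both Day3 libraries were the highest for KLK5, KLK7 and KLK8, both Treated libraries for KLK6 and both Control libraries for KLK10.

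KLK6 was higher and KLK10 lower in cells held in the gel than in Control. KLK6 encodes a trypsin-like protease known from the brain as neurosin and from ovarian tumours. It had 56.2 and 61.0 TPM in Day1 cells, 66.1 and 66.5 in Day3 cells, 44.8 and 48.3 in Extracted cells, and 95.5 and 82.3 in Treated cells, against 30.5 and 30.8 in Control. Every library of the other 4 groups lay above both Control libraries, and no group overlapped another. KLK10, first described as a gene of normal breast epithelium that is lost in tumour cell lines, had 33.7 and 38.8 TPM in Day1 cells, 32.6 and 35.7 in Day3 cells, 55.2 and 52.5 in Extracted cells, and 52.4 and 55.7 in Treated cells, against 65.4 and 63.9 in Control. Both Control libraries lay above all others. The Day1 and Day3 libraries overlapped each other and lay below the rest.

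The promoters of KLK6 and KLK10 are shown because these genes changed in opposite directions within the same cluster. The windows hold the 250 bases before an annotated start, from RefSeq on GRCh38.p14, minus strand, and are written 5′ to 3′. The table of promoters held 9 windows for 5 of the members. The KLK6 window is chr19:50969592-50969841, and the KLK10 window, the first of 2 listed, is chr19:51019862-51020111. Capitals mark every match to the motifs searched.
KLK6: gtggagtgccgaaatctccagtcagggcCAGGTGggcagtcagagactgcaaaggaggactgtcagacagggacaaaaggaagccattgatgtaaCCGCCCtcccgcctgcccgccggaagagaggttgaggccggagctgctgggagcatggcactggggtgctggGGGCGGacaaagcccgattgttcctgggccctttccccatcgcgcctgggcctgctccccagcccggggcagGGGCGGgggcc
KLK10: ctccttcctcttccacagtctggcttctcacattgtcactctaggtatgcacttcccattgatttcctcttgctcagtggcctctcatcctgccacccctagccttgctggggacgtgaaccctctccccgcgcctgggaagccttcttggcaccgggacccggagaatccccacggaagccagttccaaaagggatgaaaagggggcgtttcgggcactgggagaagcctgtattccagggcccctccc

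The motifs, searched on both strands, were the GC box, spelled GGGCGG, an E-box, spelled CACCTG, and the core TATA box, spelled TATAAA. The others were a half-site of steroid receptors, spelled AGAACA, the AP-1 motif, spelled TGANTCA, and the grainyhead motif, spelled AACNGGTT. The KLK6 window held 3 GC boxes, at 155, 83 and 11 bases before the start, and 1 E-box at 222 bases, none of which overlaps another. Neither KLK10 window held a match to any of the 6. The single KLK5 window and 1 of the 2 KLK11 windows held none, while each of the 3 KLK7 windows and the other KLK11 window held at least 1 GC box. Among all 35116 promoter windows, 42.6% held the GC box, 17.5% the E-box, 12.4% the steroid half-site, 10.7% the TATA box, 6.57% the AP-1 motif and 1.49% the grainyhead motif. The GC content was 66.8% in the KLK6 window and 59.2% in the printed KLK10 window, against a median of 58% over all windows. A match describes the letters of the window and not a site in use.

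After 24 hours in the gel, KLK6 rose and KLK10 fell. KLK6 averaged 58.6 ± 3.34 TPM on Day1 and 30.6 ± 0.222 in Control, a log2 fold change of 0.91 (SE 0.10, limma adjusted p = 0.000606). The ratio of the means was 1.91. KLK10 averaged 36.2 ± 3.62 TPM on Day1 and 64.6 ± 1.09 in Control, a fold change of -0.82 (SE 0.11, adjusted p = 0.00115 by limma). KLK5, KLK7 and KLK8 did not pass the test, and the libraries of Day1 and Control overlapped for each of them. Thus 1 of 5 tested members was called higher and 1 lower, while 14.4% of all 15167 genes tested were called higher and 6.28% lower. The split of these calls turned with the scaling. As deposited, 2180 genes were called higher and 952 lower, against 1632 and 1685 after rescaling by the median of ratios, and 1042 and 2008 when nuclear protein-coding genes were kept and rescaled. The median fold change over all genes was 0.12 as deposited, 0.0096 after the first rescaling and -0.05 after the second. Calls were made at an adjusted p under 0.05 in a fit of all libraries. The spread they rest on is that between 2 cultures per group, pooled over all 5 groups and moderated by limma.

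After 3 days, all 5 tested members had changed. KLK6 averaged 66.3 ± 0.252 TPM on Day3 against 30.6 ± 0.222 in Control (log2 fold change 1.09, SE 0.10, limma adjusted p = 0.000567). KLK10 fell to 34.1 ± 2.25 TPM on Day3, against 64.6 ± 1.09 in Control (-0.90, SE 0.11, limma adjusted p = 0.00163). The other 3 members, KLK5, KLK7 and KLK8, were called higher, so that 4 of 5 were higher and 1 lower. The shares among all genes tested were 5.18% higher and 4.64% lower, or 786 and 703 genes, with 830 and 1139 after median-of-ratios scaling and 458 and 1450 with nuclear protein-coding genes. The median fold change was 0.61 over the 5 members and 0.06 over all genes tested.

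KLK5 and KLK7 are the trypsin-like and the chymotrypsin-like protease of the outer skin, and KLK5 can activate the KLK7 precursor. KLK5 had 131 and 134 TPM on Day3 and 91.0 and 103 TPM in Control. The Day3 libraries lay above both Control libraries (log2 fold change 0.45, SE 0.12, limma adjusted p = 0.0473). KLK7, the least abundant tested member, had 9.66 and 10.2 TPM on Day3 and 3.77 and 5.44 TPM in Control. These groups did not overlap (0.98, SE 0.24, limma adjusted p = 0.0330), and the ratio of the means was 2.16. KLK8, a trypsin-like protease known as neuropsin from its role at synapses in the mouse, had 77.1 and 76.7 TPM on Day3 against 44.0 and 56.9 TPM in Control. Both Day3 libraries were above both Control libraries (0.61, SE 0.13, limma adjusted p = 0.0214).

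The calls of KLK6 and KLK10 held on both days in all 18 alternative settings, whereas those of KLK5 and KLK7 on Day3 were lost when any 1 library of Control, Day3 or Extracted was left out (adjusted p 0.0758 to 0.267 for KLK5 and 0.0505 to 0.205 for KLK7), and that of KLK8 without Control replicate 1 or either Day3 library (0.117 to 0.157, all from limma). The mRNAs of the mitochondrial genome held 2.29% and 3.92% of the TPM on Day1 and 5.97% and 7.61% on Day3, against 16.7% and 15.8% in Control. When the table was cut to nuclear protein-coding genes and rescaled, the Day3 fold change was 0.94 for KLK6, 0.85 for KLK7, 0.46 for KLK8 and -1.05 for KLK10, all still called, and 0.30 for KLK5, which was not (limma adjusted p = 0.136). The KLK5 call was also lost after median-of-ratios scaling (0.39, limma adjusted p = 0.0929), and without a filter on low values the calls of KLK5, KLK7 and KLK8 were lost (0.107, 0.114 and 0.0636).

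**Figure D2:**
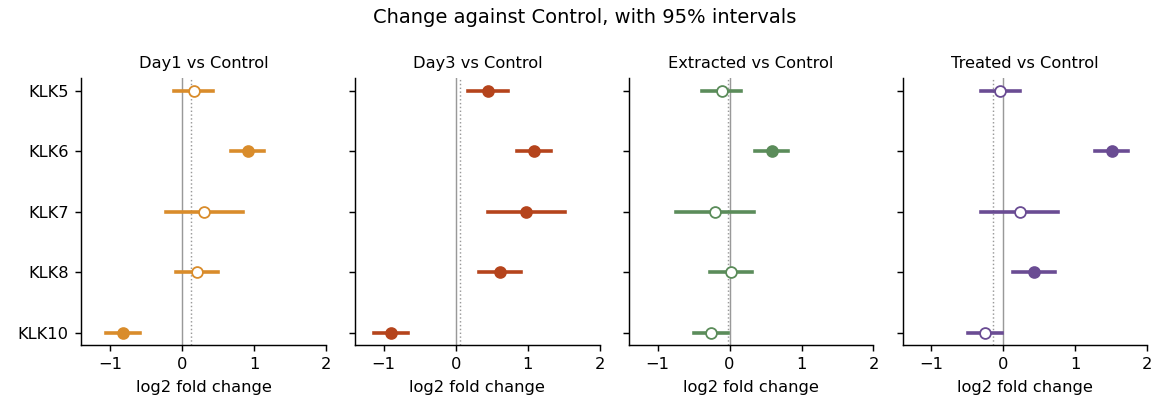
Log2 fold change of log2(TPM + 1) against Control for the 5 tested members, one panel per comparison. Points are estimates, lines their 95% intervals, filled points are called at an adjusted p under 0.05, and the dotted line is the median of all genes tested. KLK6 was called in every panel, and all 5 members were called on Day3.

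Between Day1 and Day3 no member was called in either direction, while 0.659% of all genes were called higher and 1.69% lower on Day3 (100 and 256 genes, with 220 and 336 after median-of-ratios scaling and 225 and 364 with nuclear protein-coding genes). KLK5, KLK6, KLK7 and KLK8 were each higher in both Day3 libraries than in both Day1 libraries. Their log2 fold changes were 0.28 (limma adjusted p = 0.273), 0.18 (0.423), 0.67 (0.190) and 0.41 (0.149). Unadjusted limma p was 0.0429 for KLK5, 0.0189 for KLK7 and 0.0115 for KLK8. The share of all genes with an unadjusted p this low is not given here, so these values are no calls. KLK8 had 56.8 and 58.9 TPM on Day1. KLK7 had 4.25 and 7.99 TPM in Day1 cells, and without Day1 replicate 2 its call was gained (1.06, limma adjusted p = 0.0271). KLK8 was called after rescaling by the median of ratios (0.47, limma adjusted p = 0.0414) or to nuclear protein-coding genes alone (0.47, 0.0339). The 95% interval for KLK6 was -0.06 to 0.41 and that for KLK10 -0.32 to 0.15.

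Cells that had left the gel and recovered for 2 weeks differed from Day3 cells in all 5 tested members, each in the direction opposite to its difference between Day3 and Control. These comparisons share the Day3 libraries. KLK5 fell to 89.7 ± 5.59 TPM in Extracted, against 132 ± 2.12 on Day3 (log2 fold change -0.56, SE 0.12, limma adjusted p = 0.0130). KLK7 fell to 3.84 ± 0.533 TPM in Extracted, against 9.95 ± 0.417 on Day3 (-1.18, SE 0.24, limma adjusted p = 0.00907). KLK8 fell to 50.6 ± 1.56 TPM in Extracted, against 76.9 ± 0.333 on Day3 (-0.60, SE 0.13, limma adjusted p = 0.0131).

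KLK6 fell to 46.5 ± 2.50 TPM in Extracted, against 66.3 ± 0.252 on Day3 (log2 fold change -0.50, SE 0.10, limma adjusted p = 0.0100). KLK10 rose to 53.8 ± 1.88 TPM in Extracted, against 34.1 ± 2.25 on Day3 (0.64, SE 0.11, limma adjusted p = 0.00332). No member's libraries overlapped between the groups, a description without the share over all genes. Of the 5 members 4 were lower and 1 higher, against 10.8% lower and 6.30% higher among all genes. These were 1644 lower and 955 higher, with 1511 and 1622 after median-of-ratios scaling and 1496 of each with nuclear protein-coding genes. The KLK10 call held in all 18 alternatives. Those of KLK5, KLK6 and KLK8 were lost without any 1 Day3 or Extracted library and that of KLK7 without either Day3 library or Extracted replicate 2, with limma adjusted p between 0.0511 and 0.0988 in these settings. The KLK7 call was also lost without a filter on low values (0.0502, limma).

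Relative to Control, KLK6 was the 1 member called in Extracted cells. It had 44.8 and 48.3 TPM in Extracted and 30.5 and 30.8 TPM in Control, and the groups did not overlap (log2 fold change 0.59, SE 0.10, limma adjusted p = 0.0258). No member was called lower, and the shares among all genes were 0.857% higher and 1.13% lower, or 130 and 172 genes, with 240 and 798 when nuclear protein-coding genes were kept and rescaled. The KLK6 call was lost without any 1 library of Control, Day3 or Extracted (limma adjusted p 0.0641 to 0.256) and without a filter on low values (0.0557). KLK10 lay lower in both Extracted libraries than in both Control libraries without passing the test (-0.26, limma adjusted p = 0.234). The 95% intervals were -0.38 to 0.16 for KLK5, -0.74 to 0.33 for KLK7 and -0.28 to 0.31 for KLK8, and the libraries of both groups overlapped for these 3 genes.

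In cells that had survived cisplatin, KLK6 and KLK8 were higher than in Control. KLK6 averaged 88.9 ± 9.39 TPM in Treated and 30.6 ± 0.222 in Control, a 2.90-fold ratio (log2 fold change 1.50, SE 0.10, limma adjusted p = 3.23e-05). KLK8 had 73.9 and 62.2 TPM in Treated and 44.0 and 56.9 TPM in Control (0.43, SE 0.13, limma adjusted p = 0.0390). For both genes the Treated libraries lay above the Control libraries. No member was called lower. Among all genes, 6.28% were called higher and 18.2% lower, and the median fold change was -0.15 over all genes and 0.23 over the members. The excess of lower calls, 2762 against 953 higher, was not present after median-of-ratios scaling, with 1777 lower and 1855 higher and a median of -0.0055. It was 1481 lower and 1079 higher without Treated replicate 2, and 3024 and 1314 with nuclear protein-coding genes.

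KLK5 had 91.8 and 96.3 TPM in Treated and 91.0 and 103 TPM in Control, which overlapped (log2 fold change -0.04, 95% interval -0.31 to 0.23, limma adjusted p = 0.839). KLK7 had 5.71 and 5.26 TPM in Treated and 3.77 and 5.44 TPM in Control, which also overlapped. KLK10 was lower in both Treated than in both Control libraries, but the difference did not pass the test (-0.25, limma adjusted p = 0.105). The KLK8 call was lost without Control replicate 1, Treated replicate 1 or any 1 library of Day3 or Extracted (log2 fold changes 0.25 to 0.43). It was also lost in a fit of the Treated and Control libraries alone, and in the fit of all libraries without a filter on low values. The genes of small RNAs held 14.7% of the TPM of Treated replicate 2 and 0.391% of Treated replicate 1, and without replicate 2 both calls held.

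KLK6 also differed between the 2 kinds of survivors, with 88.9 ± 9.39 TPM in Treated and 46.5 ± 2.50 in Extracted (log2 fold change 0.92, SE 0.10, limma adjusted p = 0.00126). It was the 1 member called higher, and none was lower, while 3.24% of all genes were called higher and 8.87% lower. These were 491 and 1345 genes, with 928 and 787 after median-of-ratios scaling, 948 and 1086 with nuclear protein-coding genes and 346 and 378 without Treated replicate 2. KLK8 had 73.9 and 62.2 TPM in Treated and 49.5 and 51.7 TPM in Extracted, which did not overlap, with a fold change of 0.42 that did not pass the test (limma adjusted p = 0.0663). After rescaling by the median of ratios or to nuclear protein-coding genes alone KLK8 passed it (0.56 and 0.53, limma adjusted p = 0.0118 and 0.00941). KLK10 was at 52.4 and 55.7 TPM in Treated and 55.2 and 52.5 TPM in Extracted, with a 95% interval of -0.23 to 0.24.

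The order of the group means was not the same for every member. For KLK6, Treated lay above Day3 (limma adjusted p = 0.0127) and Day3 was not separated from Day1 (0.423). Day1 lay above Extracted (0.0471), which lay above Control (0.0258). Both of these steps were fragile. The gap between Day1 and Extracted narrowed after median-of-ratios scaling, with fold changes against Control of 0.79 and 0.61, against 0.91 and 0.59 as deposited. The call of Extracted over Control was lost without any 1 library of Control, Day3 or Extracted and without a filter on low values. For KLK10, Control, Treated and Extracted formed an upper set without a called difference between neighbours, and Extracted lay above Day1 (limma adjusted p = 0.00518). No difference between neighbours in the order was called for KLK5, KLK7 or KLK8, each of which was highest on Day3. Over wider steps, 2 of the 5 tested members were called in Extracted against Day1, KLK6 lower and KLK10 higher, and 2 in Treated against Day1, KLK6 and KLK10, both higher. In Treated against Day3, 4 were called, KLK5 and KLK7 lower and KLK6 and KLK10 higher. The gap between Day3 and Treated narrowed for KLK5 and KLK7 after median-of-ratios scaling. For KLK5 the log2 fold changes against Control were then 0.39 on Day3 and 0.12 in Treated, against 0.45 and -0.04 as deposited. For KLK7 they were 0.93 and 0.37, against 0.98 and 0.23. The share of all genes called in either direction was 23.5% for Extracted against Day1, 44.8% for Treated against Day1 and 35.0% for Treated against Day3. For KLK8 none of these 3 contrasts was called. Its gap between Treated and Day1 widened after median-of-ratios scaling. The log2 fold changes against Control were then 0.59 in Treated and 0.08 on Day1, against 0.43 and 0.20 as deposited. Calls of the 3 contrasts under the alternatives are not given here, so how far they depend on the scaling is left undecided.

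The summed level of the 6 genes, given as a description, was 247 and 289 TPM in Day1 cells, 317 and 324 in Day3 cells, 240 and 250 in Extracted cells, and 320 and 302 in Treated cells, against 235 and 260 in Control. Day3 and Treated libraries lay above the other 6. KLK6 made up 22.7% and 21.1% of the sum in Day1 cells, 20.9% and 20.5% in Day3 cells, 18.7% and 19.3% in Extracted, and 29.9% and 27.2% in Treated, against 13.0% and 11.8% in Control. KLK10 made up 13.6% and 13.4% in Day1 cells, 10.3% and 11.0% in Day3 cells, 23.0% and 21.0% in Extracted, and 16.4% and 18.4% in Treated, against 27.8% and 24.6% in Control. The ratio of KLK6 to KLK10, which does not depend on the scaling of a library, was 1.67 and 1.57 in Day1 cells, 2.03 and 1.86 in Day3 cells, 0.812 and 0.920 in Extracted, and 1.82 and 1.48 in Treated, against 0.466 and 0.482 in Control. KLK10 thus exceeded KLK6 in the Extracted and Control libraries, and KLK6 exceeded KLK10 in the other 6.

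**Figure D3:**
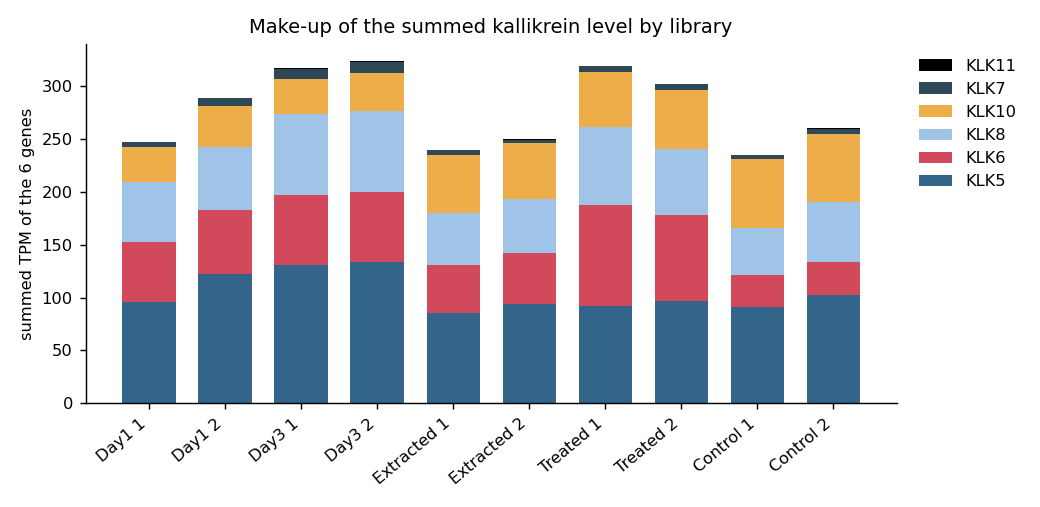
Summed TPM of the 6 kallikrein genes in each library, stacked by gene on a linear axis from 0. The KLK6 segment is smallest in the 2 Control libraries (30.5 and 30.8 TPM), and the KLK10 segment is smallest in the 4 Day1 and Day3 libraries (32.6 to 38.8 TPM).

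Across the 10 libraries, KLK5 and KLK7 had the closest profiles of any pair of members (Pearson r = 0.93 on log2(TPM + 1), n = 10 libraries). KLK7 and KLK8 followed at 0.82 and KLK6 and KLK8 at 0.75, while KLK5 and KLK6 gave 0.26. KLK10 was negatively related to each of the others, with r between -0.71 and -0.48. These libraries fall into 5 groups and share their scaling, so r is a description. The mean profile of the tested members includes KLK10, which ran against the others, so it stands for no single member. It was compared with 10532 other protein-coding genes that had a group mean of at least 5 TPM. The 8 most like it were MLPH (0.96), JUP (0.96), SELENBP1 (0.95), HOXA4 (0.94), NME4 (0.94), MAPK3 (0.94), PLEKHB1 (0.93) and NDUFB11 (0.93). JUP encodes plakoglobin, a protein of desmosomes and adherens junctions. It averaged 143 ± 12.3 TPM in Day1 cells, 156 ± 6.18 in Day3 cells, 134 ± 2.19 in Extracted and 147 ± 8.45 in Treated, against 136 ± 9.58 in Control. Taken singly, a choice made after the values had been seen, KLK6 was most like SLPI (0.99) and KLK10 most like TUBB6 (0.96).

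Of 10 other kallikrein genes in the table, 2 reached 1 TPM in 2 libraries. KLK1, tissue kallikrein, which releases kinins, reached 1 TPM only in both Treated libraries and Extracted replicate 2, and passed the filter through these. It had 1.66 and 1.79 TPM in Treated and 0.992 and 1.52 in Extracted, against 0.0926 and 0.537 in Control. These values lie near the filter. Treated did not overlap Control (log2 fold change 1.07, limma adjusted p = 0.00877). The Treated libraries themselves carried KLK1 past the filter, so this p is given as a description and not as support for a difference. Extracted did not overlap Control either but was not called (0.79, limma adjusted p = 0.113). The Treated call was lost without Control replicate 1. KLK13 averaged 0.400 ± 0.0343 TPM in Day1 cells, 1.26 ± 0.214 in Day3 cells, 0.737 ± 0.0257 in Extracted and 0.898 ± 0.546 in Treated, against 0.761 ± 0.525 in Control, and was not called against Control. KLK2, KLK3 (prostate-specific antigen), KLK12 and the pseudogene KLKP1 were listed at 0 in every library, and KLK4, KLK9, KLK14 and KLK15 stayed below 1 TPM.

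Of 10 flanking protein-coding genes tested within 600 kb of the 6 members, POLD1, the catalytic subunit of DNA polymerase delta, was the 1 called lower than in Control. It averaged 11.5 ± 1.64 TPM on Day1, 13.3 ± 0.362 on Day3 and 14.4 ± 0.403 in Treated, against 21.7 ± 0.671 in Control (log2 fold changes -0.87, -0.66 and -0.56, limma adjusted p = 0.00169, 0.0105 and 0.00935). FAM71E1 was called higher on Day1 (2.93 ± 0.223 TPM, against 1.48 ± 0.165 in Control; 0.66, limma adjusted p = 0.0462). None of the 10 was called in Extracted. By comparison, 14.4% of all genes tested were called higher and 6.28% lower on Day1, and 5.18% and 4.64% on Day3. These shares were 0.857% and 1.13% in Extracted and 6.28% and 18.2% in Treated. Counts among 10 genes are too few to be set apart from such shares. The POLD1 call on Day3 was lost without any 1 library of Control or Day3, and that in Treated without either Control library or after median-of-ratios scaling. The FAM71E1 call was lost in 11 of the 18 alternatives, with limma adjusted p up to 0.193. The nearest, CTU1, a tRNA-modifying enzyme 69.6 kb from KLK11, averaged 3.25 ± 0.676 TPM on Day3 and 4.20 ± 1.42 TPM in Control. C19orf48 lay 138 kb from KLK5 on the other side, at 58.9 ± 1.71 and 65.9 ± 3.04 TPM. Other kallikrein genes lie in these gaps, KLK12, KLK13 and KLK14 before CTU1 and KLK1, KLK15, KLK3, KLK2 and KLK4 before C19orf48. Neither CTU1 nor C19orf48 was called against Control, nor were JOSD2, EMC10, ETFB and VSIG10L.

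**Figure D4:**
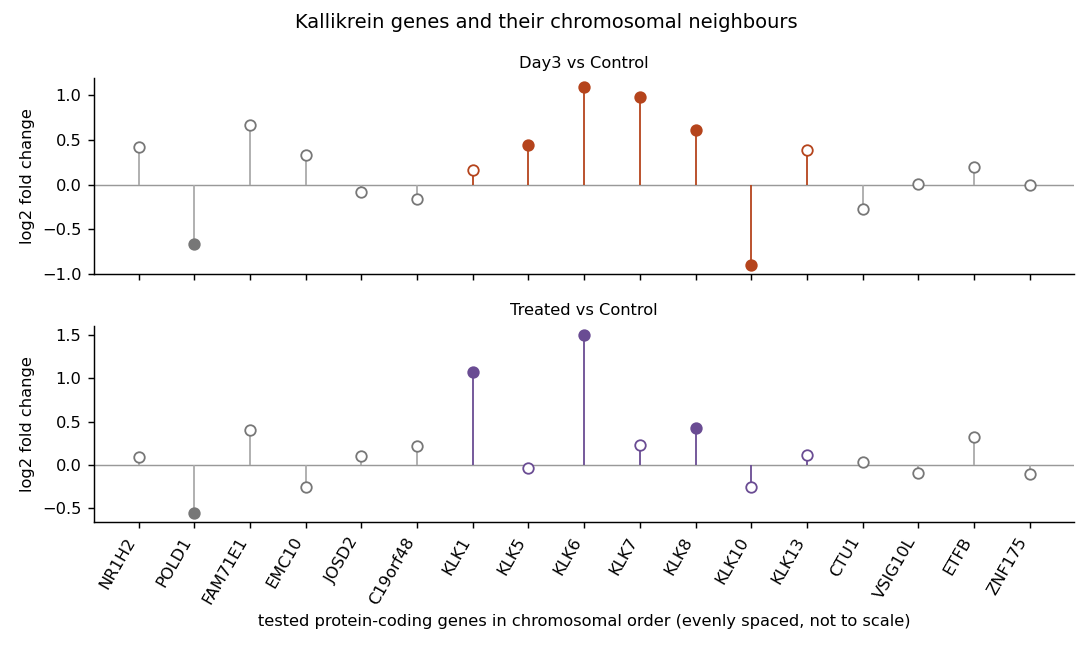
Log2 fold change against Control of the tested protein-coding genes around the cluster, in chromosomal order and evenly spaced, for Day3 (top) and Treated (bottom). Kallikrein genes are coloured and others grey, and filled points are called at an adjusted p under 0.05. On Day3 the called kallikrein genes run from KLK5 to KLK10, with KLK10 at -0.90 and the others between 0.45 and 1.09.

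In the list of protease inhibitors 14 genes were tested. Of these, 8 were higher in Day1 cells, 8 in Day3 cells, 3 in Extracted and 6 in Treated cells, and SPINT2 in Treated was the 1 lower call. Their median fold change was 0.63, 0.50, 0.18 and 0.37 in these 4 comparisons, against 0.12, 0.06, -0.02 and -0.15 over all genes tested. Among all genes tested, 14.4% were higher and 6.28% lower on Day1, and 5.18% and 4.64% on Day3. In Extracted these shares were 0.857% and 1.13%, and in Treated 6.28% and 18.2%. The counts of inhibitors depended on single libraries. On Day1 the count was 5 without either Control library or Day1 replicate 1, on Day3 it was 3 to 5 without any 1 library of Control, Day3 or Extracted, in Extracted it was 0 or 1 without any 1 library of Control or Extracted, and in Treated it was 4 without Control replicate 2 or Treated replicate 1 and 9 after either rescaling. The SPINT2 call was lost without Treated replicate 2 or either Control library, after median-of-ratios scaling and with both groups fitted alone.

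SLPI, a secreted inhibitor of leukocyte elastase and other serine proteases, had 847 and 845 TPM in Day1 cells, 923 and 934 in Day3 cells, 662 and 679 in Extracted cells, and 1359.85 and 1012 in Treated cells, against 388 and 413 in Control. It was above Control in every library of the 4 states (log2 fold changes 1.08, 1.21, 0.74 and 1.55, limma adjusted p = 0.000604, 0.000745, 0.0209 and 5.44e-05). PI3 encodes elafin, another elastase inhibitor of the same family. It averaged 27.5 ± 4.74 TPM in Day1 cells, 22.1 ± 2.96 in Day3 cells, 32.1 ± 9.81 in Extracted and 141 ± 2.84 in Treated, against 8.58 ± 0.419 in Control, and was called in all 4. SERPINA1, alpha-1-antitrypsin, reached 101 ± 3.10 TPM in Treated, against 14.6 ± 1.36 in Control (2.71, limma adjusted p = 2.81e-06). The SLPI call in Extracted was lost without any 1 library of Control, Day3 or Extracted or without a filter on low values. That of PI3 was lost in Extracted without either Control library and in Day3 cells without Day3 replicate 2.

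SERPINE2, protease nexin-1, an inhibitor of thrombin and urokinase, averaged 52.9 ± 19.8 TPM in Day1 cells, 16.6 ± 0.0213 on Day3 and 18.6 ± 5.05 in Treated, against 8.34 ± 1.48 in Control, and was called in these 3. Its Day3 call was lost without any 1 library of Control, Day3 or Extracted, and its Treated call without Control replicate 2 or Treated replicate 1. Neither held without a filter on low values. WFDC2, which encodes the ovarian cancer serum marker HE4, averaged 1121 ± 146 TPM on Day1 and 1169 ± 53.1 in Day3 cells, against 532 ± 13.8 in Control, and was called on both days (1.07 and 1.13). The remaining 17 inhibitor genes of the list were below the filter. Among them SPINK5, named after its values had been seen because it encodes LEKTI, the skin inhibitor of KLK5 and KLK7, had a mean of at most 0.123 TPM in any group.

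**Figure D5:**
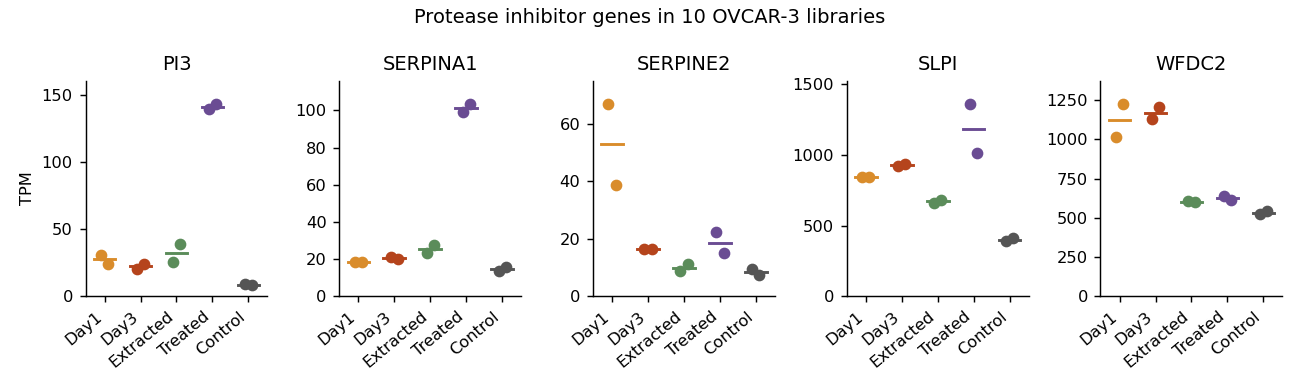
TPM of 5 protease inhibitor genes in each library. Points are libraries, bars the mean of 2, and each linear axis starts at 0. SLPI lay above both Control libraries (388 and 413 TPM) in every other library, and PI3 and SERPINA1 were highest in both Treated libraries.

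Among 12 other tested membrane and secreted serine proteases, 3 were higher in Day1 cells, 2 in Day3 cells, none in Extracted and 5 in Treated, with 1 lower in Extracted and 1 in Treated. For all genes, the higher and lower shares were 14.4% and 6.28% on Day1 and 5.18% and 4.64% on Day3. They were 0.857% and 1.13% in Extracted and 6.28% and 18.2% in Treated. PLAU, the urokinase gene, had 216 and 189.6 TPM in Treated, against 74.8 and 57.4 in Control (log2 fold change 1.61, limma adjusted p = 0.00202). PLAT, tissue plasminogen activator, was higher in Day1 cells, at 28.3 and 30.9 TPM, and lower in Extracted, at 6.88 and 7.12, against 10.9 and 11.8 in Control. It was also called higher in Day3 cells and in Treated (log2 fold changes 0.53 and 0.86), the first of these lost without any 1 library of Control or Day3. TMPRSS4 and PRSS22, both trypsin-like, were higher in Treated (1.27 and 1.20). PRSS8, prostasin, had 92.1 ± 4.86 TPM on Day1 and 97.9 ± 1.88 in Day3 cells, against 61.9 ± 4.13 in Control, and was called on both days. Both PRSS8 calls were lost without Control replicate 1, and that on Day3 also without either Day3 library. The Day1 count was 1 without Control replicate 1. The Day3 count was 0 or 1 without any 1 library of Control or Day3. In Treated, none was lower without any 1 library of Control, Day3, Extracted or Treated or after either rescaling, and the call of PLAT in Extracted was lost without any 1 library of Control, Day3 or Extracted.

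Of 31 tested substrates and receptors of kallikreins, 6 were higher and 6 lower in Day1 cells, 6 and 7 in Day3 cells, 1 and 4 in Extracted, and 6 and 8 in Treated. Over all genes tested, 14.4% were higher and 6.28% lower on Day1, and 5.18% and 4.64% on Day3. The shares were 0.857% and 1.13% in Extracted and 6.28% and 18.2% in Treated. FLG, filaggrin, a protein of the cornified layer, fell to 9.73 ± 0.713 TPM in Day1 cells, 13.1 ± 2.08 on Day3 and 14.5 ± 2.78 in Treated, against 51.8 ± 7.57 in Control. LAMA5, a laminin chain, fell to 46.6 ± 3.56 TPM on Day1 and 58.3 ± 3.45 in Day3 cells, against 157 ± 26.0 in Control. FN1, fibronectin, fell to 105 ± 10.8 TPM in Day1 cells, 74.1 ± 0.179 on Day3 and 86.0 ± 9.89 in Extracted, against 213 ± 8.38 in Control. IGFBP5, which binds insulin-like growth factors, rose to 22.7 ± 0.132 TPM on Day1 and 37.5 ± 2.96 on Day3 and fell to 2.79 ± 0.391 in Extracted and 2.84 ± 0.0429 in Treated, against 6.36 ± 0.750 in Control. MMP2, a gelatinase, rose to 13.2 ± 2.47 TPM in Extracted and 16.6 ± 0.307 in Treated, against 4.63 ± 0.271 in Control. In Extracted, the calls of MMP2 and IGFBP5 were lost without either Control library or Extracted replicate 2, that of IGFBP5 also without Extracted replicate 1, and that of FN1 without Control replicate 2. Without either Control library the Day1 counts were 2 and 3 or 3 and 4. Without any 1 library of Control or Day3 the Day3 counts were 1 or 2 higher and 3 lower, and in Extracted 0 to 2 were higher and 0 to 6 lower when any 1 library other than those of Day1 was left out. In Treated, 3 were higher without either Control library or with both groups fitted alone and 10 after either rescaling. On Day3, 3 were higher and 11 lower with nuclear protein-coding genes.

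Genes of cornification, the skin program in which KLK5 and KLK7 act, were called in both directions. Of 15 tested, 2 were higher and 4 lower on Day1, 2 and 4 in Day3 cells, none in Extracted, and 6 and 3 in Treated. The shares of all genes called higher and lower were 14.4% and 6.28% on Day1 and 5.18% and 4.64% on Day3. In Extracted they were 0.857% and 1.13%, and in Treated 6.28% and 18.2%. S100A8 and S100A9, which encode the calprotectin subunits, were higher in 3 states. S100A9 averaged 11.7 ± 3.11 TPM in Day1 cells, 15.3 ± 2.87 on Day3 and 95.9 ± 7.85 in Treated, against 2.38 ± 0.256 in Control. KRT4, a mucosal keratin, fell to 12.0 ± 5.54 TPM on Day1 and rose to 109 ± 14.2 in Treated, against 37.0 ± 1.40 in Control. KRT17, whose reads may be shared with close keratin copies, was lower on Day1, on Day3 and in Treated (-0.62, -1.52 and -0.73). Its Day1 call was lost without any 1 library of Control, Day1 or Extracted, and its Treated call without either Control library or Treated replicate 2. The Day3 count of lower genes was 2 without either Control library, Day3 replicate 2 or either Extracted library, without a filter on low values and with the replicate block. The Treated count of lower genes was 1 without either Control library, Treated replicate 2 or the filter. In Extracted, 1 gene was called lower without either Day1 library and after either rescaling.

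Of 20 tested nuclear receptors and epithelial transcription factors, 7 were higher on Day1, 3 in Day3 cells, none in Extracted and 1 in Treated, with 2 lower in Extracted and 4 in Treated. All genes tested had 14.4% higher and 6.28% lower on Day1, and 5.18% and 4.64% on Day3. They had 0.857% and 1.13% in Extracted and 6.28% and 18.2% in Treated. KLF4, OVOL1 and NR3C1, the glucocorticoid receptor, were higher on Day1 (log2 fold changes 1.20, 0.90 and 0.85). RXRA, a retinoid X receptor, fell to 9.05 ± 0.419 TPM in Treated, against 20.6 ± 3.85 in Control. The Day3 count was 0 or 1 without Control replicate 1 or either Day3 library. The Extracted count was 0 or 1 without any 1 library of Control, Day3 or Extracted. In Treated, 5 genes were higher and 3 lower after median-of-ratios scaling, 3 and 5 with nuclear protein-coding genes alone, and 0 to 2 higher and 2 to 6 lower when a library of Control, Day1, Extracted or Treated was left out.

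All 14 ovarian carcinoma and epithelial markers reached 1 TPM in 2 libraries, with sums of 5676 to 8482 TPM. Of 9 keratinocyte markers 4 did, and DSG3, KRT1, KRT14 and LOR were near 0. Their sum was 41.2 to 48.2 TPM in Day1 cells, 44.3 to 46.4 in Day3 cells, 70.2 to 86.8 in Extracted and 46.7 to 50.9 in Treated, against 74.1 to 83.2 in Control, most of it from KRT10 and FLG. Leukocyte markers summed to 3.06 to 10.1 TPM, with 3 of 10 at the filter, fibroblast and mesothelial markers to 18.6 to 34.7 TPM, with 5 of 10, and endothelial markers to 1.33 to 2.79 TPM, with 0 of 6. The part of these markers in the kallikrein values was not tested. Between 13896 and 14173 genes per library reached 1 TPM, and replicates correlated at 0.983 to 0.991 across genes. TPM carry no read depth. Antisense genes overlap KLK5, KLK6, KLK7, KLK8 and KLK10 and were listed at 0.377 TPM or less. Whether reads were counted by strand is not given in the sources used here.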

How the data were processed

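RNA of 10 OVCAR-3 libraries was analysed from a table of TPM that the authors deposited, made with Trimmomatic, STAR and Cufflinks on GRCh38, per the submitters' processing notes. Neither versions nor annotation are stated there. The 58313 entries were summed by identifier to 58222 genes. Depth is unknown, and a 0 may be a failed estimate. The 15167 genes that reached 1 TPM in 2 or more libraries entered a limma 3.58.1 fit (R 4.3.3) to log2(TPM + 1). It had a coefficient for every group, 5 residual degrees of freedom and a trend of variance on mean. Tests were two-sided, and p was adjusted by Benjamini-Hochberg over all genes of a comparison. On this scale a fold change is a difference of 2 group means, which understates the change of low genes.

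Members and gene lists were chosen with earlier results of these data known. Named were all members, tested kallikrein and flanking genes (at most 8 flanking), and up to 5 called genes per list with the largest change and a group mean of at least 5 TPM. FAM71E1 and POLD1 belong to the flanking genes. The fit was also run on simulated data with normal errors that followed its own variance trend. These held no shift in the composition of the libraries, and no result here rests on them. Alternatives were another pseudocount (0.1), no filter, a filter at 5 TPM, 2 rescalings, a fit of the 2 compared groups, a replicate block, the first entry per identifier and each library left out. Their use on list counts was chosen after seeing the data. Promoters came from RefSeq. A gene that the naming rule selects is not reported here.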

Additional observations from a re-analysis of the deposited data

How the results depend on the processing

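All 18 alternatives kept 4 calls of KLK6 (Day1, Day3 and Treated, each against Control, and Treated against Extracted). They also kept 3 of KLK10 (Day1 and Day3, each against Control, and Extracted against Day3). Against Control and without a filter on low values, Day3 had 2 members called, Extracted 0 and Treated 1. Treated also had 1 when the 2 compared groups were fitted alone. After median-of-ratios scaling and with nuclear protein-coding genes alone, 1 member was called between Day3 and Day1 and 2 between Treated and Extracted. With 1 library left out, which also leaves fewer samples, the members called against Control numbered 2 to 5 for Day3, 0 to 1 for Extracted and 1 to 2 for Treated. They numbered 0 to 1 for Day3 against Day1 and 1 to 5 for Extracted against Day3.

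Signs turned only for fold changes that were not called. With nuclear protein-coding genes alone these were KLK5 and KLK8 on Day1 (-0.0447 and -0.00302), KLK8 in Extracted (-0.0545) and KLK5 in Treated (0.00328), the last also after median-of-ratios scaling (0.122). With 1 library left out, lowest and highest values against Control were -0.00758 and 0.33 for KLK5, -0.0794 and 0.70 for KLK7 on Day1, -0.42 and 0.0149 for KLK7 and -0.17 and 0.20 for KLK8 in Extracted, and -0.13 and 0.0459 for KLK5 in Treated. They were -0.18 and 0.0178 for KLK10 on Day3 against Day1, and -0.0380 and 0.0487 for KLK10 in Treated against Extracted. The cause of these changes was not tested.

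Replicate numbers did not pair the samples (correlations of deviations between groups -0.022 to 0.087). A fit with the number as a replicate block called 5 members on Day3 against Control, as without it, and changed no other member's call.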
